A study of Mus musculus with 22 samples.

Results

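The genes described here encode the 3 families of enzymes that attach a polar group to drugs, bile pigments, steroids and reactive metabolites in the liver. They were chosen by symbol: glutathione S-transferases (GST; Gsta, Gstm, Gstp, Gstt, Gsto and Gstk), UDP-glucuronosyltransferases (UGT; Ugt1a, Ugt2a, Ugt2b and Ugt3a) and cytosolic sulfotransferases (SULT; Sult1 to Sult5). The rule found 57 genes among 18716 rows of the deposited table, of which 20 were GST, 19 were UGT and 18 were SULT genes. All livers were labelled with the genotype Fah-/-, which stands for loss of fumarylacetoacetate hydrolase (Fah), the enzyme that completes the breakdown of tyrosine. Fah transcripts were still found in every library, at levels given below. The D0 group held 7 livers of day 0 that the labels call normal. The other livers had received cells labelled td-Hepatocytes and were taken on day 28 after NTBC, the drug that protects animals of this genotype, was withdrawn. Of these, 8 were given vehicle and 7 were given an agent named only as YC. The labels used here give neither the age nor the sex of the animals, nor the origin of the transplanted cells. Nor do they say whether replicates are different animals, and the p-values below therefore describe the scatter among libraries, part of which may be technical.

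GST enzymes couple glutathione to electrophiles, UGT enzymes couple glucuronic acid from UDP-glucuronate, and SULT enzymes couple sulfate from the donor PAPS. The conjugates are more soluble and leave hepatocytes through ABC transporters such as Abcc2 (canalicular) and Abcc3 (basolateral). Many GST genes are textbook targets of the oxidant sensor NRF2, Ugt1a genes also answer to the receptors AHR, CAR and PXR, and several mouse SULT genes, Sult2a1 and Sult3a1 among them, are known to be higher in female than in male liver.

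Some facts of the libraries bear on these genes. Transcripts of the Y chromosome (Ddx3y, Eif2s3y, Kdm5d and Uty, summed) were above 1 RPKM in 0 of 7 D0, 8 of 8 vehicle and 3 of 7 YC libraries (YC 1, YC 2 and YC 3), and the sources used here do not give whether host or transplanted cells made them. Vehicle and D0 livers therefore differ in Y-linked transcripts as completely as in treatment, and for this pair the parts of sex, transplantation and NTBC withdrawal cannot be told apart. YC 6 and YC 7 had Fah at 41.3 and 31.5 RPKM, near the D0 range of 21.1 to 38.8, against 105.5 to 406.7 in the other YC livers. Vehicle livers held Fah at 270.8 to 541.6 RPKM. YC 1 and YC 2, at 105.5 and 128.1 RPKM, also lay below every vehicle liver, while YC 3, YC 4 and YC 5 lay within the vehicle range. Vehicle 1 and YC 4 held the pancreatic transcript Prss2 at 65.3 and 134.8 RPKM, against at most 0.409 in the other libraries. Hepatocyte markers were present throughout, and their summed level was 50480 to 69850 RPKM in D0, 61810 to 96000 in vehicle and 32120 to 64710 in YC livers. In whole liver, fewer cells of a type and less RNA per cell cannot be told apart.

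Sequences just upstream of 3 groups of neighbouring genes are shown first, because these neighbours are of 1 gene family each and share short runs here, while their transcripts did not always move together. Each is the 120 bases before the RefSeq start on GRCm38.p6, written 5′ to 3′ on the strand of the gene. Gsta1 (chr9:78230549-78230668, plus strand) and Gsta2 (chr9:78347146-78347265, minus strand) share the run of 28 bases in capitals and matched at 70.5% of the 250 bases before the start; both rose with YC.
Gsta1: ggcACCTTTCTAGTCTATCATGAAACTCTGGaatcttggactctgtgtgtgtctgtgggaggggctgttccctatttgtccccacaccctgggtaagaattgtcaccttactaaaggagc
Gsta2: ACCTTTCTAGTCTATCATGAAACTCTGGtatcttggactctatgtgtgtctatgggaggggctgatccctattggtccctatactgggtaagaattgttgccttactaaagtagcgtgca
In the Ugt2 cluster of chromosome 5, Ugt2b35 (chr5:87000740-87000859, plus strand), Ugt2b36 (chr5:87092556-87092675, minus strand) and Ugt2b5 (chr5:87140341-87140460, minus strand) hold the 13 letters GTTATANTTTAAC, shown in capitals. Outside these letters they are less alike: over the 250 bases Ugt2b35 matched Ugt2b36 at 50.6% and Ugt2b5 at 55.4%. With YC Ugt2b35 rose, Ugt2b36 fell and Ugt2b5 did not pass the test.
Ugt2b35: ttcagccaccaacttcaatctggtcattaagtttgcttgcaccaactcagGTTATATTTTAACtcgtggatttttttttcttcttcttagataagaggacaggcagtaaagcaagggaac
Ugt2b36: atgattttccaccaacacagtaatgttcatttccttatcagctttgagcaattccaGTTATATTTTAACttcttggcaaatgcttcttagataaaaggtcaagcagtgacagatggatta
Ugt2b5: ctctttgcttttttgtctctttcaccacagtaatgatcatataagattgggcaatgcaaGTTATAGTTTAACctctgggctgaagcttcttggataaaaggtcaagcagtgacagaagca
These letters are the longest run, with at most 1 variable base, that Ugt2b5, Ugt2b35, Ugt2b36, Ugt2b37 and Ugt2b38 share in the 120 bases, so their presence there is no finding. Searched on both strands of the 250 bases before the start, they were in 6 of 32851 mouse promoters (0.0183%), namely these 5 genes and Pklr. In the Sult2a cluster of chromosome 7 the longest such run of Sult2a3 (chr7:14123049-14123168, minus strand), Sult2a4 (chr7:13989589-13989708, minus strand) and Sult2a5 (chr7:13623847-13623966, plus strand) has 24 letters and was in no other promoter of the table. Over the 250 bases Sult2a3 matched Sult2a5 at 73.3% and Sult2a4 at 57.8%. Sult2a3 was lower in vehicle than in D0 livers, while Sult2a5 did not pass the test in any comparison. Sult2a4 was also called lower in vehicle, but it was near the floor, at most 1.26 RPKM. No vehicle library held it at the 0.5 RPKM of the filter described below. It missed that filter when any of D0 3 to D0 7, YC 6 or YC 7 was left out alone, so its call is no support for a fall.
Sult2a3: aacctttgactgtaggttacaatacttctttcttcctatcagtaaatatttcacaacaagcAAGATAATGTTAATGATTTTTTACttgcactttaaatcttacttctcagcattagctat
Sult2a4: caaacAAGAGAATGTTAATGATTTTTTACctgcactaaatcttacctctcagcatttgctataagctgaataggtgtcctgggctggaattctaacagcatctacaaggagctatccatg
Sult2a5: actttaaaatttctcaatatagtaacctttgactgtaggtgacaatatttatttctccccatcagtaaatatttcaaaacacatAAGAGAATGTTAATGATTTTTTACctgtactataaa
Of motifs searched for named factors, TGACNNNGC, the core letters bound by NRF2, was in 3 of the 49 member genes with a promoter in the RefSeq table (Gsta3, Gstm5 and Gstm7) and in 10.2% of all promoters. GCGTG, the core letters bound by AHR, was in 8 of 49 genes and in 28.2% of all promoters. The letters of these runs and motifs were not compared for overlap in other genes, and a match or its absence here describes letters only.

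Before any comparison, the 3 classes differed in level. RPKM (reads scaled to transcript length and library size) are per length, so levels can be set side by side between genes. The GST genes summed to 20060 ± 2867 RPKM in D0 livers (SD, n = 7), the UGT genes to 3193 ± 407 and the SULT genes to 1771 ± 329. In vehicle livers the sums were 10770 ± 3705, 1359 ± 242 and 855 ± 352 (SD, n = 8), and in YC livers 12970 ± 5164, 1310 ± 365 and 869 ± 486 (SD, n = 7). For UGT, the lowest D0 liver (2376 RPKM) lay above the highest vehicle liver (1720) and the highest YC liver (2000). For SULT, the lowest D0 liver (1332) lay above the highest vehicle liver (1276), while the YC range of 443 to 1754 overlapped that of D0. The GST sums of vehicle livers (5260 to 16280) lay below those of D0 (16550 to 25020), and those of YC (7797 to 21230) overlapped both. These sums carry no test.

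**Figure D1:**
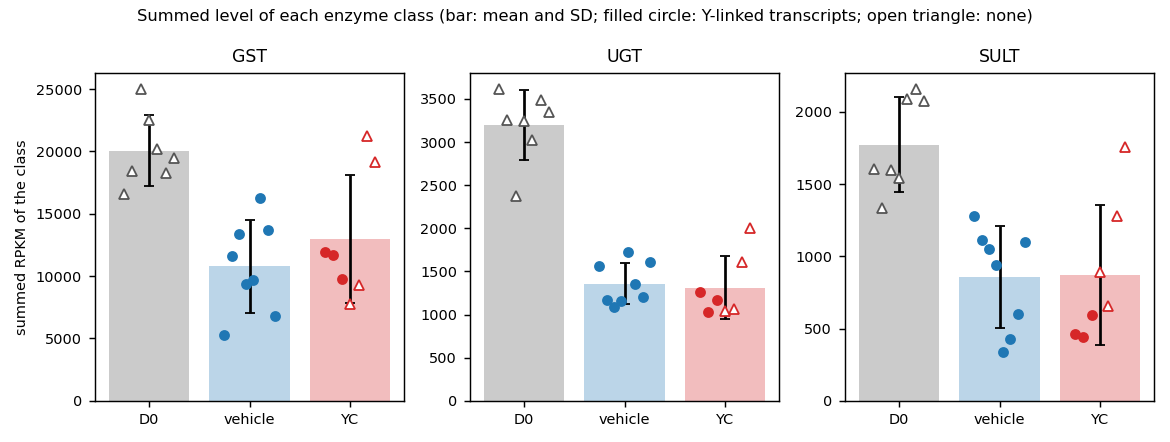
Summed RPKM of the GST, UGT and SULT genes in each library of the D0, vehicle and YC groups; bars give the mean and error bars the SD, filled circles mark libraries with Y-linked transcripts and open triangles those without. The UGT sums of all 7 D0 livers lie above all 15 day 28 livers.

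Single genes carried much of each sum. Gstm1, a mu-class enzyme, made up 48.4% of the GST sum in D0, 45.5% in vehicle and 45.05% in YC livers. Ugt2b5 made up 37.5%, 32.4% and 39.4% of the UGT sum. Among sulfotransferases the leading gene varied. Sult2a2 and Sult2a1, enzymes of the hydroxysteroid and bile acid sulfating branch, made up 38.2% and 34.2% of the SULT sum in D0 livers. Sult1a1, which sulfates phenols, made up 39.6% ± 18.8 in YC (SD, n = 7; 13.0% to 61.1%), 27.2% ± 7.01 in vehicle (SD, n = 8) and 11.5% ± 2.78 among the D0 libraries (SD, n = 7). It was the highest SULT gene in 4 of 7 YC livers and 2 of 8 vehicle livers, and Sult2a2 was in the other 3 YC livers (YC 4, YC 6 and YC 7) and 6 vehicle livers.

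YC was compared with vehicle in a limma fit over all 12537 genes that reached 0.5 RPKM in at least 7 libraries; differences are of log2(RPKM + 0.5), with the SE of the fit, and a gene was called at a Benjamini-Hochberg adjusted p under 0.05. Of the 57 genes, 50 passed this filter. With YC, 7 GST genes were higher (among them Gsto2, which is near the filter), 4 were lower and 8 did not pass the test. For UGT genes the counts were 5 higher (among them Ugt1a7c, which is near the filter), 6 lower and 5 not called. For SULT genes they were 2 higher, 4 lower and 9 not called. Over all 3 classes, 14 genes (28%) were higher, against 44.6% of all genes tested, and 14 (28%) were lower, against 6.14% of all genes tested. In all, 28 members (56%) were called in either direction, against 50.7% of all genes tested. All 7 YC livers lay above all 8 vehicle livers in 2 of the 57 genes (3.51%, Ugt1a9 and Sult2b1), against 6.52% of all genes tested. They lay below them in 4 (7.02%, Gstt1, Ugt2a3, Ugt2b1 and Sult2a8), against 0.558%. These member shares are over all 57 genes, tested or not. The median difference was 0.26 for GST, 0.35 for UGT and -0.39 for SULT genes, and 0.31 for all genes tested.

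That split depends on how libraries are scaled, because 87.9% of all genes called in YC against vehicle were higher (5587 higher, 770 lower). After median-ratio scaling of the libraries, 51.9% of the genes called were higher (2265 higher, 2100 lower), and the median of all genes moved from 0.31 to 0.01. Of 49 members then tested, 5 were higher (Gsto1, Gsto2, Ugt1a9, Ugt2b35 and Sult2b1) and 15 lower, against 18.1% and 16.8% of all genes, and the class medians became -0.09, -0.16 and -0.44. After quantile normalization (2257 higher, 2109 lower), 13 members were higher and 14 lower, against 18% and 16.8%. All 14 members called lower without rescaling were also called lower after median-ratio scaling. After quantile normalization 13 of them were, with Gsta3 no longer called (-0.29, adjusted p = 0.0819) and Sult1b1 called lower instead (-0.77, adjusted p = 0.0420). The count of members called higher ran from 5 to 14.

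**Figure D2:**
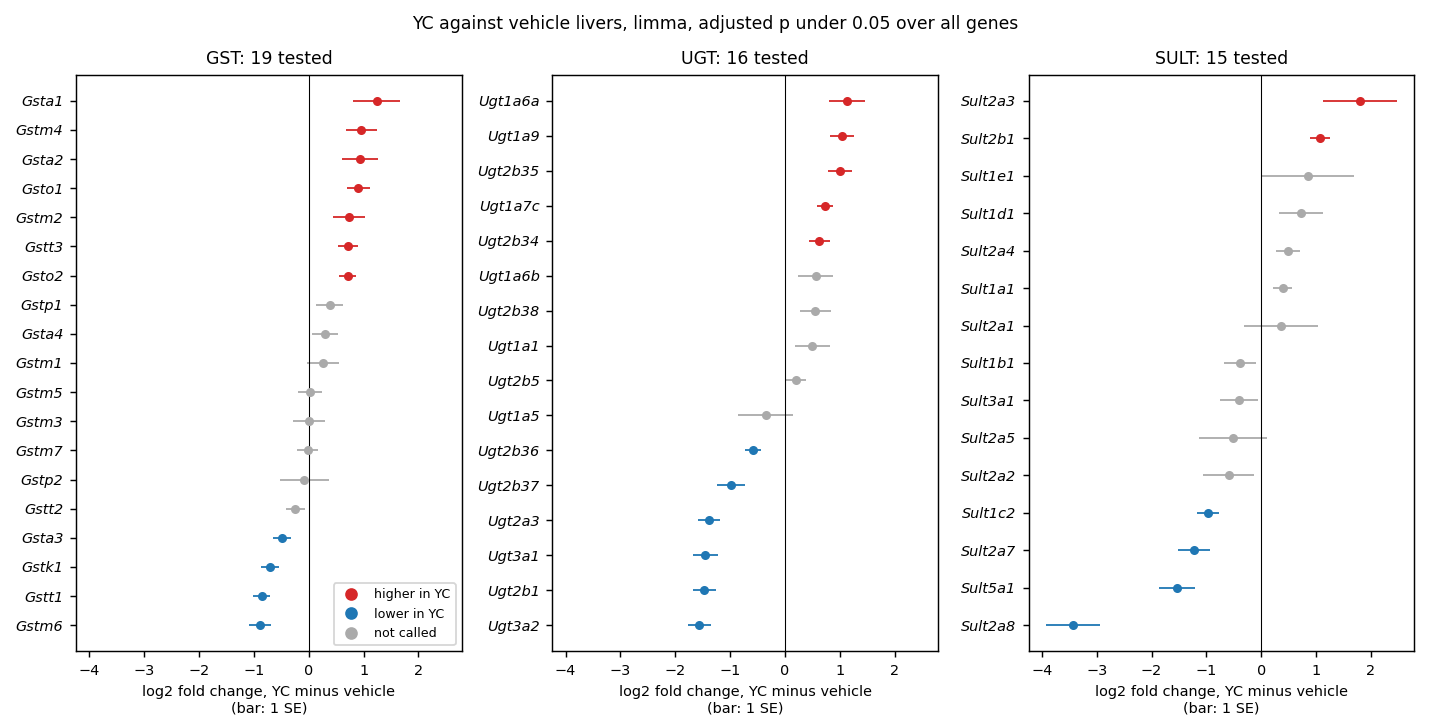
Difference of log2(RPKM + 0.5) between YC and vehicle livers for the 50 tested genes, with bars of 1 SE on each side; red marks genes called higher, blue genes called lower and grey genes not called. Sult2a8 at -3.43 lies farthest below 0 and Sult2a3 at 1.80 farthest above it.

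Among the transferases of glutathione, the alpha-class genes Gsta1 and Gsta2, which act on lipid peroxidation products and steroids, were higher with YC. Gsta1 had a lowest, median and highest value of 67.8, 141.1 and 398.5 RPKM in vehicle livers and of 126.7, 410.4 and 1433 in YC livers. Gsta2 ran over 219, 428 and 671 RPKM in vehicle and 317, 770 and 2229 in YC livers. For both genes 4 of 7 YC livers exceeded every vehicle liver. The differences were 1.24 ± 0.43 for Gsta1 (2.36-fold, adjusted p = 0.0194) and 0.94 ± 0.33 for Gsta2 (1.92-fold, adjusted p = 0.0204). YC 6 and YC 7 carried part of both differences. They held Gsta1 at 945 and 1433 RPKM, against 126.7 to 431 in YC 1 to YC 5. Without these 2 libraries the differences were 0.59 (adjusted p = 0.171) and 0.40 (adjusted p = 0.186), and leaving out either one alone also ended both calls, at 0.92 and 1.02 for Gsta1 and 0.69 and 0.74 for Gsta2 (adjusted p from 0.052 to 0.0561). After median-ratio scaling they were 0.89 (adjusted p = 0.101) and 0.59 (adjusted p = 0.159). Gsta1 shares 90.5% and Gsta2 49.8% of their 50-base windows with other annotated genes, so their single values are uncertain.

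Gstm4, a mu-class enzyme, had a lowest, median and highest value of 108.5, 185 and 331.1 RPKM in vehicle and 165.5, 398 and 698 in YC livers. The difference was 0.95 ± 0.28 (adjusted p = 0.00746), and 0.59 (adjusted p = 0.0626) without YC 6 and YC 7. Gsto1, an omega-class enzyme that reduces dehydroascorbate, was at 95.3, 185.1 and 260.0 RPKM in vehicle and 173.3, 342 and 521 in YC livers, with 5 of 7 YC livers above every vehicle liver. Its difference of 0.90 ± 0.22 (adjusted p = 0.00143) kept its call without YC 6 and YC 7. Gstm2, Gsto2 and Gstt3 were also called higher, by 0.73, 0.71 and 0.72. Gsto2 was near the floor, at 0.201 to 0.451 RPKM in vehicle and 0.255 to 1.07 in YC livers. It passed the filter through D0 and YC libraries alone. It missed the filter with only the compared groups fitted and among libraries with Y-linked transcripts. Its call is therefore no support for a rise. The call of Gstm2 (adjusted p = 0.0398) was lost when vehicle 1, 4, 5 or 8 or YC 1, 2, 6 or 7 was left out alone (0.54 to 0.74, adjusted p from 0.0549 to 0.108), after median-ratio scaling (0.38, adjusted p = 0.302), with no filter (adjusted p = 0.0579), with only the compared groups fitted (adjusted p = 0.0740) and with array weights (adjusted p = 0.0852). That of Gstt3 was lost after median-ratio scaling (0.37, adjusted p = 0.131).

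Other glutathione transferases went down. Gstt1, the theta-class enzyme that acts on small halogenated hydrocarbons, had a lowest, median and highest value of 172.4, 228 and 333 RPKM in vehicle and 91.8, 140.3 and 158.7 in YC livers. All 7 YC livers lay below all 8 vehicle livers, at a difference of -0.86 ± 0.15 (1.82-fold lower, adjusted p = 6.73e-05). Gstm6 was at 61.7, 110.7 and 130.2 RPKM in vehicle and 33.7, 62.3 and 89.6 in YC livers, a difference of -0.89 ± 0.20 (adjusted p = 8.41e-04). Gstk1, the mitochondrial and peroxisomal kappa enzyme, was lower, with a difference of -0.71 (adjusted p = 0.00148). Gsta3, the alpha-class enzyme that inactivates aflatoxin epoxide in mouse liver, was at 900.3, 1164 and 1218 RPKM in vehicle and 605, 689 and 1264 in YC livers. Its 5 lowest YC livers lay below every vehicle liver, and its 2 highest above every one; the difference was -0.49 ± 0.16 (adjusted p = 0.0143), and -0.29 (adjusted p = 0.0819) after quantile normalization. Within the 7 Gstm genes that stand side by side on chromosome 3, 2 were higher, 1 was lower and 4 were not called.

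Gstm1 and Gstp1, the most abundant glutathione transferases, and Gstm3 did not pass the test in this comparison. Gstm1 had a median of 4834 RPKM in vehicle and 5662 in YC livers, and its difference of 0.26 ± 0.29 had an adjusted p of 0.464. Gstp1, the pi-class enzyme known to be higher in male mouse liver, had medians of 1567 and 1814 RPKM and a difference of 0.38 ± 0.25 (adjusted p = 0.203). Gstm3 had medians of 670 and 607 RPKM and a difference of 0.00 ± 0.29 (adjusted p = 0.997).

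Among the glucuronosyltransferases, the genes that rose were 3 of the Ugt1a and 2 of the Ugt2b group, and the genes that fell were of the Ugt2 and Ugt3a groups. Of the 3, Ugt1a7c was near the floor, at 0.391 to 1.17 RPKM in YC and 0.02955 to 0.597 in vehicle livers. It passed the filter mainly through YC libraries. It missed the filter when vehicle 1 or any YC library but YC 6 was left out alone, and after median-ratio scaling. Its call is therefore no support for a rise. Ugt1a9, a phenol-conjugating enzyme, had a lowest, median and highest value of 7.16, 10.6 and 17.1 RPKM in vehicle and 19.1, 21.9 and 29.9 in YC livers. All 7 YC livers lay above all 8 vehicle livers, and the difference was 1.04 ± 0.22 (2.05-fold, adjusted p = 5.32e-04). Ugt1a6a, which conjugates planar phenols and is a textbook AHR and NRF2 target, was at 1.81, 5.46 and 10.9 RPKM in vehicle and 5.29, 12.01 and 15.2 in YC livers. For it 5 of 7 YC livers lay above every vehicle liver; the difference was 1.13 ± 0.33 (adjusted p = 0.00614), and 0.81 (adjusted p = 0.0683) after median-ratio scaling. Ugt1a1, the enzyme that conjugates bilirubin, had medians of 14.9 and 22.9 RPKM and did not pass the test (0.50 ± 0.32, adjusted p = 0.193). No Ugt1a gene was called lower with YC. The 8 Ugt1a genes of chromosome 1 share their last exons, so how reads were divided among them may set their single values; more than 10% of the 50-base windows of each were shared with other genes.

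Ugt2b35 and Ugt2b34, members of the group that conjugates steroids and bile acids, were the Ugt2b genes called higher. Ugt2b35 had a lowest, median and highest value of 45.3, 62.7 and 104.6 RPKM in vehicle and 72.4, 127.6 and 264 in YC livers, with 5 of 7 YC livers above every vehicle liver. The difference was 1.00 ± 0.21 (2.00-fold, adjusted p = 5.66e-04). Ugt2b34 had medians of 128.7 and 184.4 RPKM and a difference of 0.63 ± 0.18 (adjusted p = 0.00674), which was 0.38 (adjusted p = 0.0523) without YC 6 and YC 7.

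Their neighbours went the other way. Ugt2b1 had a lowest, median and highest value of 69.2, 92.6 and 178.3 RPKM in vehicle and 24.6, 32.4 and 60.9 in YC livers. Ugt2a3 was at 65.2, 88.1 and 116.1 RPKM in vehicle and 18.8, 32.2 and 59.1 in YC livers. In both genes every YC liver lay below every vehicle liver, at differences of -1.47 ± 0.21 (adjusted p = 1.14e-05) and -1.38 ± 0.21 (adjusted p = 1.44e-05). Ugt2b36, with the same 13 letters upstream as Ugt2b35, was at 239, 327 and 412 RPKM in vehicle and 172, 210.2 and 319 in YC livers, with 6 of 7 YC livers below every vehicle liver. Its difference was -0.59 ± 0.14 (adjusted p = 0.00190). Ugt2b37, at medians of 2.48 and 1.34 RPKM, was also lower (-0.99, adjusted p = 0.00251). Ugt2b5, the most abundant UGT, had medians of 429 and 430.5 RPKM and did not pass the test (0.19 ± 0.20, adjusted p = 0.427). On this chromosome 5 cluster of 9 genes, 8 were tested, and 2 were higher, 4 lower and 2 not called.

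The Ugt3a enzymes use other sugar donors than glucuronate, such as UDP-N-acetylglucosamine and UDP-glucose. Ugt3a2 had a lowest, median and highest value of 81.5, 130.9 and 175.7 RPKM in vehicle and 27.2, 33.7 and 86.0 in YC livers. Ugt3a1 was at 8.23, 14.9 and 25.9 RPKM in vehicle and 2.80, 4.92 and 10.6 in YC livers. In both genes 6 of 7 YC livers lay below every vehicle liver. Their differences were -1.56 ± 0.21 (2.95-fold lower, adjusted p = 6.00e-06) and -1.45 ± 0.23 (2.74-fold lower, adjusted p = 2.54e-05).

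Among the sulfotransferases the largest difference of all members was found in Sult2a8, a liver enzyme known to sulfate bile acids. It had a lowest, median and highest value of 23.4, 47.0 and 217.6 RPKM in vehicle livers and 0.918, 5.38 and 12.8 in YC livers. Every YC liver lay below every vehicle liver and below every D0 liver (52.3, 92.0 and 155.6 RPKM). The difference from vehicle was -3.43 ± 0.49, or 10.8-fold lower (adjusted p = 1.27e-05), and it was -4.20 (adjusted p = 9.22e-04) among libraries with Y-linked transcripts alone. Sult5a1 had medians of 4.62 and 0.967 RPKM and a difference of -1.54 ± 0.33 (adjusted p = 6.24e-04), with 5 of 7 YC livers below every vehicle liver. Sult2a7 and Sult1c2, at medians of 1.10 and 4.38 RPKM in vehicle livers, were lower by differences of -1.23 and -0.97.

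Sult2b1, which sulfates cholesterol and is mainly known from skin, was low throughout. It was at 0.279, 0.639 and 1.15 RPKM in vehicle and 1.31, 1.77 and 2.75 in YC livers. All YC livers lay above all vehicle livers (1.06 ± 0.18, adjusted p = 5.87e-05). Sult2a3 was called higher, but unevenly: YC 6 and YC 7 held 40.5 and 53.0 RPKM, YC 1 to YC 5 held 1.85 to 3.17 and the vehicle livers 0.137 to 4.66. The difference was 1.80 ± 0.67 (adjusted p = 0.0310), 0.66 (adjusted p = 0.236) without YC 6 and YC 7, and from 1.29 to 1.72 with adjusted p from 0.0513 to 0.0813 when YC 6, YC 7 or vehicle 4, 5, 6 or 7 was left out alone. Sult1a1, Sult1e1, Sult2a1 and Sult2a2 did not pass the test. Sult1e1, the estrogen sulfotransferase, was at 0.254, 1.34 and 99.99 RPKM in vehicle and 0.615, 8.95 and 37.6 in YC livers. Its vehicle group is stretched by vehicle 1, since the other vehicle livers reached at most 6.27 RPKM. Without vehicle 1 its difference was 1.55 (adjusted p = 0.0359), and without vehicle 1 and YC 4 it was 1.95 (adjusted p = 0.00547).

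**Figure D3:**
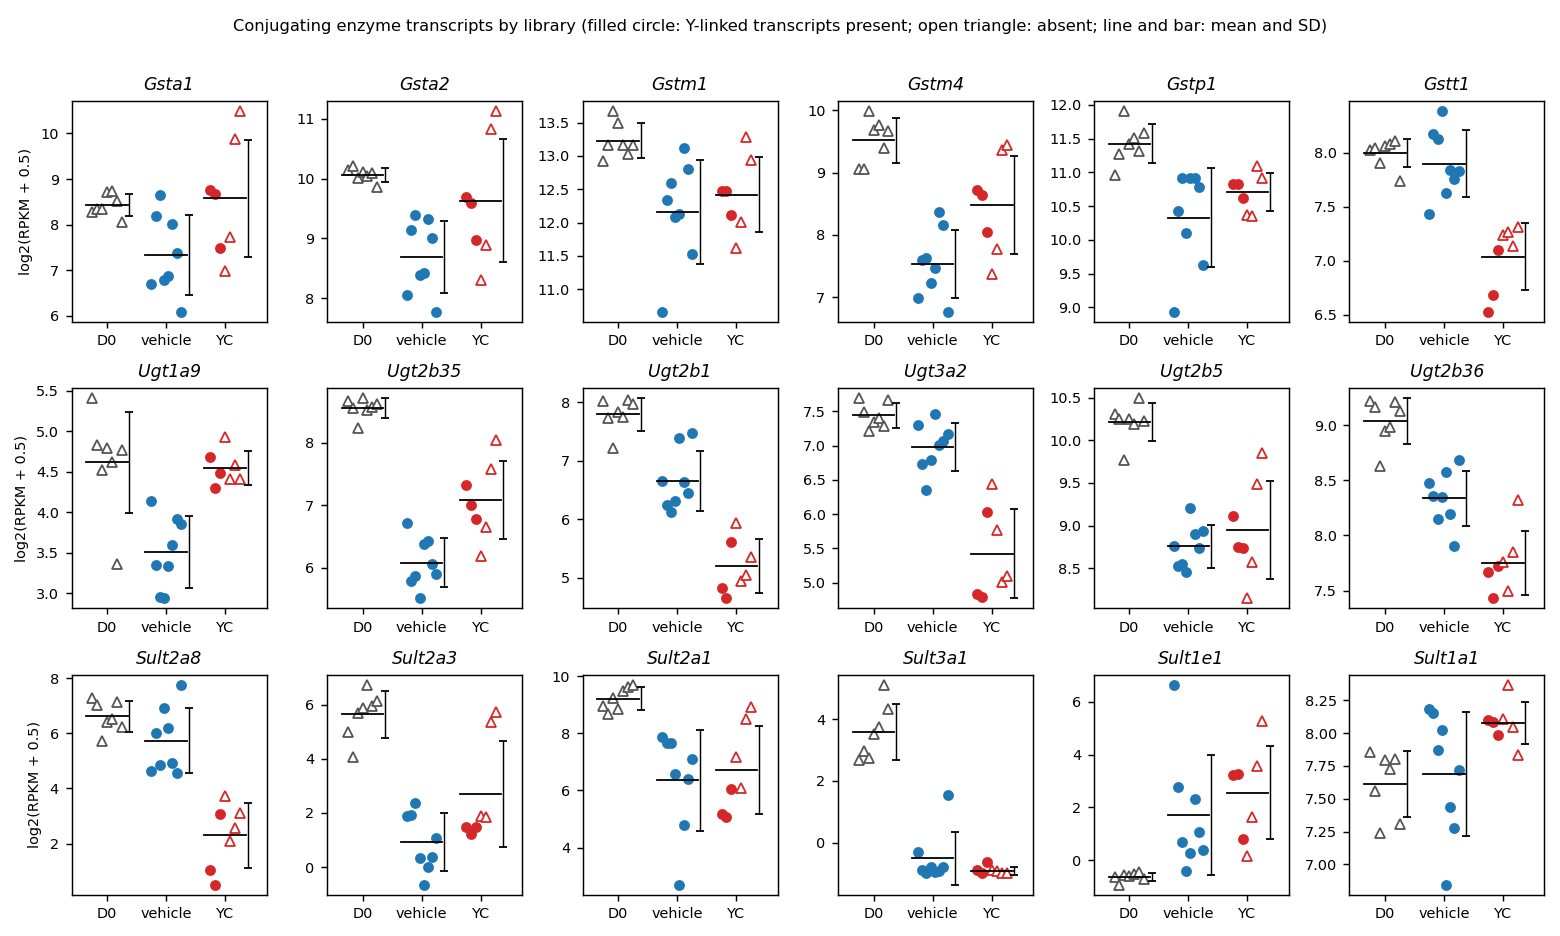
Log2(RPKM + 0.5) of 18 genes in each library, with the mean and SD of each group; filled circles mark libraries with Y-linked transcripts and open triangles those without. Every YC library lies below every vehicle library for Gstt1, Ugt2b1 and Sult2a8 and above every one for Ugt1a9, while YC 6 and YC 7, the last triangles of the group, stand above the rest in Gsta1, Gsta2 and Sult2a3.

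The libraries that stand apart carried part of the calls. Without YC 6 and YC 7, 9 members were called higher and 14 lower of 48 tested: Gsta1, Gsta2, Gstm2, Gstm4, Ugt2b34 and Sult2a3 no longer passed, Ugt1a7c, called higher with all libraries, missed the filter, Ugt1a1 and Ugt1a6b now passed, and the same 14 genes were called lower. With the 3 YC and 8 vehicle libraries that had Y-linked transcripts, 6 of 46 members tested were called higher (Gsto1, Gstm4, Ugt1a9, Ugt1a6a, Ugt2b35 and Sult2b1) and 15 lower, of which 14 were those called in the full comparison and the other was Sult2a2. YC 1 and YC 2, both among these 3, were the most alike of all libraries (Pearson r = 0.9948). The spread among the YC libraries of this subset, and its p-values, may therefore be too small.

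The genes around these enzymes moved as follows with YC, from lists of pathway genes. Of 8 genes of glutathione supply, 6 were called higher in limma and 0 lower, with 0 lower at an unadjusted p under 0.05. Gclc, the rate-limiting enzyme of glutathione synthesis, was at 156.1, 180.1 and 293 RPKM in vehicle and 249, 478 and 695 in YC livers (1.14 ± 0.19), and Ggt1, which breaks glutathione down outside the cell, had the largest difference (2.18 ± 0.30). Of 5 genes of glucuronate supply, 4 were higher. Ugdh, which makes UDP-glucuronate, was at 121.6, 188.6 and 293 RPKM in vehicle and 259, 387 and 812 in YC livers (1.27 ± 0.22). Of 8 genes of sulfate supply, 3 were higher and 1 was lower: Suox, which oxidizes sulfite to sulfate, at -1.05 ± 0.26. Papss2, the main liver enzyme of PAPS synthesis, did not pass the test (-0.44 ± 0.21). Of 6 conjugate exporters, 5 were higher. Abcc2 was at 23.8, 45.2 and 86.9 RPKM in vehicle and 82.3, 164.7 and 218.3 in YC livers, a difference of 1.72 ± 0.24 with 6 of 7 YC livers above every vehicle liver.

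Among 11 other conjugating enzymes, 3 were higher and 3 lower. Mgst2 and Mgst3, microsomal relatives of the GST enzymes, were higher by 2.01 ± 0.36 and 1.38 ± 0.34, and Mgst1, the abundant liver form with a median of 3194 RPKM in vehicle and 1535 in YC livers, was lower (-0.80 ± 0.17). Of regulators and their markers, 8 of 8 NRF2 markers were called higher (Hmox1 by 2.42 ± 0.27), as were 2 of 4 AHR markers (Cyp1a1 by 3.12 ± 0.45), with 1 lower. Of 5 CAR and PXR markers, 2 were lower and 0 higher in limma, with 0 higher at an unadjusted p under 0.05. Over the hepatocyte markers 5 of 8 were lower with YC, with a median difference of -0.77. Of markers of other cells, 4 of 8 neutrophil (Mpo, Elane, Ngp and Ly6g), 3 of 7 cholangiocyte and 3 of 8 stellate markers were higher with YC. These counts are near the 44.6% of all genes tested that were called higher. Of 5 lymphocyte markers 3 were lower, and of 4 erythroid markers 1 was, against 6.14% of all genes tested. The 8 macrophage markers did not pass the test. Endothelial markers were mixed, with 1 of 8 higher and 2 lower. The summed neutrophil markers were at 43.8 to 163.0 RPKM in vehicle and 37.4 to 401.6 in YC livers, and the cholangiocyte markers at 129.3 to 348.9 and 127.7 to 363.2. The part of these genes in the differences of the conjugating enzymes was not tested. All list counts for YC against vehicle are without rescaling, where 44.6% of all genes tested were higher and 6.14% lower. After median-ratio scaling these shares were 18.1% and 16.8%, and the lists were not recounted.

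Against D0, most members called in the vehicle livers were lower. Of the 50 genes tested, 29 (58%) were lower, against 29.9% of all genes tested, and 4 (8%) were higher, against 28.2%. Either way 33 (66%) were called, against 58.1%. By class, 11 of 19 GST, 12 of 16 UGT and 6 of 15 SULT genes were lower, and 1, 0 and 3 were higher. Among the lower genes, Gsto2 and Sult2a4 were near the floor and passed the filter through D0 and YC libraries alone. The median differences were -0.77 for GST, -1.25 for UGT and -0.39 for SULT genes, and 0.00 for all genes tested. After median-ratio scaling, 29 of 49 members were lower and 5 higher, and after quantile normalization 30 of 50 were lower and 5 higher. In 17 of the 57 genes, tested or not (29.8%), every vehicle liver lay below every D0 liver, against 11.7% of all genes tested. Markers of other cells moved in the same comparison. In vehicle livers 7 of 8 macrophage, 7 of 8 neutrophil, 5 of 7 cholangiocyte, 5 of 8 stellate and 4 of 4 erythroid markers were higher than in D0, as were 3 of 8 hepatocyte markers. Summed, the macrophage markers were at 92.0 to 170.1 RPKM in D0 and 279.9 to 926.0 in vehicle livers, and the cholangiocyte markers at 33.0 to 57.4 and 129.3 to 348.9. Their part in the members' differences was not tested.

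Sulfotransferases had the steepest differences. Sult2a3 had a lowest, median and highest value of 16.3, 58.5 and 106.4 RPKM in D0 and 0.137, 1.21 and 4.66 in vehicle livers, at -4.72 ± 0.67 (26.4-fold lower, adjusted p = 6.79e-06). Sult3a1, an amine-sulfating enzyme, was at 5.89, 10.9 and 34.4 RPKM in D0 and 0, 0.0587 and 2.43 in vehicle livers, at -4.10 ± 0.35 (adjusted p = 3.18e-09). Sult2a1 was at 404.5, 603 and 837 RPKM in D0 and 5.99, 116.4 and 235.0 in vehicle livers, at -2.86 ± 0.68 (adjusted p = 0.00122). In all 3 genes the groups did not overlap. Sult1e1 went the other way, from at most 0.226 RPKM in D0 to between 0.254 and 99.99 RPKM in vehicle livers, a difference of 2.35 ± 0.85 (adjusted p = 0.0222).

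These differences stand beside the sex chromosome transcripts. Of 8 genes known to be female-biased in mouse liver, 7 were lower in vehicle than in D0 livers (Cyp2b13 by a difference of -4.56). Of 6 male-biased genes tested 5 were higher (Cyp4a12a by 5.90) and 1 was lower (Cyp7b1). In YC against D0, 6 of the 8 female-biased genes were lower and 1 was higher (Cyp2a4). Of the 6 male-biased genes 4 were then higher and 1 was lower. The 4 YC libraries without Y-linked transcripts allow a comparison with D0 within 1 such class. In them Cyp4a12a was at 19.1 to 51.0 RPKM, against at most 0.411 in D0, and Cyp2b13 at 0.43 to 2.76, against 32.4 to 91.9. The sex-biased genes thus differed from D0 in libraries without Y-linked transcripts too. Sult3a1 was there at 0 to 0.0339 RPKM, against 5.89 or more in D0 (-4.55, adjusted p = 3.08e-06). Sult2a1 was at 67.7 to 482 RPKM, against 404.5 to 837 (-1.54, adjusted p = 0.0131), and Sult2a3 at 3.08 to 53.0 RPKM, against 16.3 to 106.4 (-1.93, adjusted p = 0.0513).

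Of the glucuronosyltransferases, Ugt2b35 had a lowest, median and highest value of 300.1, 382 and 420.4 RPKM in D0, above the highest vehicle liver at 104.6. Its difference was -2.47 ± 0.21 (5.56-fold lower, adjusted p = 3.62e-09). Ugt1a6a was at 12.1, 24.2 and 48.5 RPKM in D0 and at most 10.9 in vehicle livers (-2.29 ± 0.33, adjusted p = 4.02e-06). Ugt2b38, at 13.6, 20.1 and 24.9 RPKM in D0 and at most 11.2 in vehicle livers, was lower by a difference of -1.89 ± 0.29 (adjusted p = 9.49e-06). Ugt2b5, the most abundant, was at 871, 1213 and 1445 RPKM in D0 and 351.5, 429 and 592 in vehicle livers (-1.45 ± 0.20, adjusted p = 1.86e-06). None of the 16 UGT genes tested was called higher in limma, and 0 were higher at an unadjusted p under 0.05.

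Of the glutathione transferases, Gstm4 was at 531, 817 and 1013 RPKM in D0, above every vehicle liver (-1.99 ± 0.28, adjusted p = 3.61e-06). Gstp2 was at 41.8, 63.3 and 108.4 RPKM in D0 and 6.90, 24.8 and 90.2 in vehicle livers, with overlap (-1.51 ± 0.45, adjusted p = 0.00635). Gstp1, its close copy, was at 1999, 2742 and 3836 RPKM in D0 and 491, 1567 and 1943 in vehicle livers, without overlap (-1.10 ± 0.25, adjusted p = 6.63e-04). Gstp1 and Gstp2 matched at 78.1% of the 250 bases before the start and share 50-base windows, so reads may have been divided between them. Gstm1, at 7812, 9151 and 13040 RPKM in D0 and 1621, 4834 and 8931 in vehicle livers, was lower by a difference of -1.07 ± 0.29 (adjusted p = 0.00293). Beside these, 7 of 8 NRF2 markers, 4 of 6 conjugate exporters and 3 of 5 genes of glucuronate supply were lower in vehicle than in D0 livers. In each of these lists 1 gene was higher (Slc7a11, Abcc1 and Gusb). Of 8 genes of glutathione supply 3 were lower (Gclc, Gclm and Gsr) and 3 higher (Ggt1, Slc7a11 and Chac1). Of all genes tested 29.9% were lower and 28.2% higher. The part of these lists was not tested.

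Against D0, YC livers had 29 members lower (58%, against 12.3% of all genes tested) and 5 higher (10%, against 41.2%), so that 34 (68%) were called either way, against 53.4%. In 13 of the 57 genes, tested or not (22.8%), every YC liver lay below every D0 liver, against 4.17% of all genes tested. The lower genes were 9 GST, 12 UGT and 8 SULT genes (among them Sult2a4, which is near the filter). The higher genes include Ugt1a7c, which passed the filter mainly through the YC libraries. Scaling moved the background more than the members. After median-ratio scaling 32 of 49 members were lower and 3 higher, against 28.8% and 25.7% of all genes. After quantile normalization 32 of 50 were lower and 3 higher, against 30% and 23.3%. Beside these, 7 of 7 cholangiocyte, 7 of 8 macrophage, 8 of 8 neutrophil and 5 of 8 stellate markers were higher in YC than in D0 livers, and 3 of 8 hepatocyte markers were lower and 1 higher; their part was not tested.

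This comparison shares its D0 libraries with the one above, so the values are set side by side without a test between them. Gsta1 differed from D0 by -1.09 ± 0.43 in vehicle and by 0.14 ± 0.44 in YC livers. The call in vehicle was lost when D0 4, D0 5 or vehicle 1, 4, 5 or 8 was left out alone, at differences from -0.92 to -1.04 (adjusted p from 0.0541 to 0.0698). Ugt1a9 differed by -1.11 ± 0.22 and -0.07 ± 0.23. Ugt2b35 differed by -2.47 ± 0.21 in vehicle and -1.47 ± 0.22 in YC livers, and Ugt2b1 by -1.14 ± 0.21 and -2.60 ± 0.22. Ugt3a1 differed by -1.41 ± 0.23 and -2.86 ± 0.24, and Sult2a8 by -0.89 ± 0.49 (not called) and -4.32 ± 0.51. Without vehicle 8, which held Sult2a8 at 217.6 RPKM, its vehicle difference was -1.18 and was called lower (adjusted p = 0.02975). Sult3a1 was low in both day 28 groups, at -4.10 ± 0.35 and -4.50 ± 0.36. Sult1e1 was higher in both, at 2.35 ± 0.85 and 3.19 ± 0.87, and Sult1a1 was called higher in YC (0.46 ± 0.18, adjusted p = 0.0329), though not after median-ratio scaling (0.12, adjusted p = 0.618) or when D0 2, D0 3, D0 7 or YC 5 was left out alone (0.40 to 0.45, adjusted p from 0.0519 to 0.0727). Within the libraries without Y-linked transcripts (4 YC, 7 D0), 25 of 47 members were lower and 2 higher, against 9.70% and 28.8% of all genes.

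**Figure D4:**
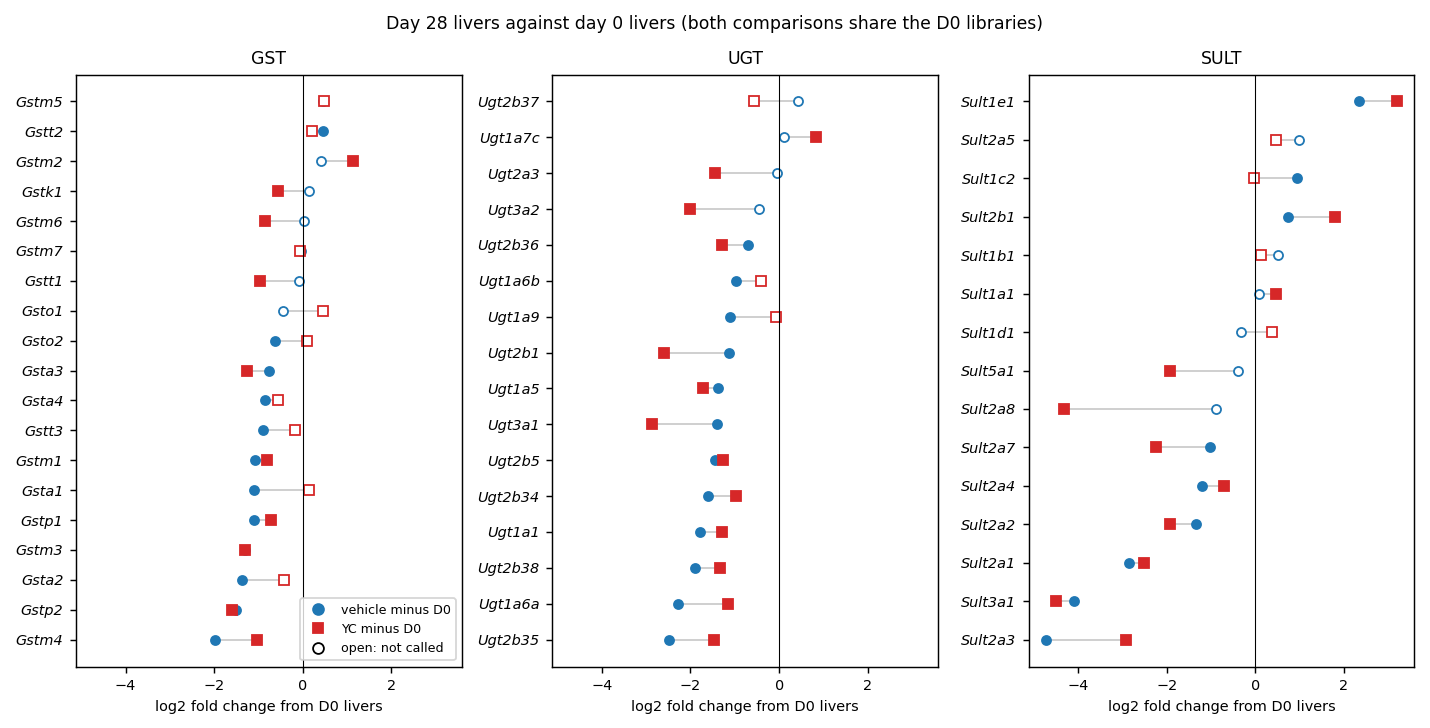
Difference of log2(RPKM + 0.5) from D0 for vehicle (circles) and YC livers (squares), for the 50 tested genes by class; filled marks are genes called and open marks genes not called. Most UGT genes lie left of 0 in both, while Gsta1 and Ugt1a9 lie near 0 in YC livers and Sult2a8 and Ugt3a1 lie farther left in YC than in vehicle livers.

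Put together by gene, 10 members were called lower in vehicle against D0 and called higher in YC against vehicle (20% of 50, against 20.9% of all genes tested). These were Gsta1, Gsta2, Gstm4, Gsto2 (near the floor, with no vehicle library at 0.5 RPKM), Gstt3, Ugt1a6a, Ugt1a9, Ugt2b34, Ugt2b35 and Sult2a3. After median-ratio scaling only Gsto2, Ugt1a9 and Ugt2b35 of these met both calls (3 of 49 members, 6.12%, against 9.04% of all genes), and after quantile normalization 10 of 50 members did, against 8.9% of all genes, with Gsto1 and Gstp1 in place of Ugt1a6a and Sult2a3. A further 5 were called lower in both steps (Gsta3, Ugt2b1, Ugt2b36, Ugt3a1 and Sult2a7), which is 10%, against 0.383% of all genes. After median-ratio scaling the same 5 were called lower in both, against 1.12% of all genes, and after quantile normalization 4 (without Gsta3), against 1.42%. Another 14 (28%) were lower in vehicle and not called with YC, against 8.54%, and 8 (16%) were not called in vehicle and lower with YC, against 2.54%. After median-ratio scaling these classes held 21 and 8 members, against 20.7% and 7.05% of all genes. Without rescaling the last group held Gstk1, Gstm6, Gstt1, Ugt2a3, Ugt2b37, Ugt3a2, Sult2a8 and Sult5a1. Some of these were called lower in vehicle under other settings. With the replicate number as a block these were Sult2a8 (-1.18, adjusted p = 0.0392) and Sult5a1 (-0.57, adjusted p = 0.0456). With only the compared groups fitted it was Ugt3a2 (-0.46, adjusted p = 0.0121). Both steps use the vehicle libraries, so these counts describe the calls and are no evidence that the steps are linked.

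**Figure D5:**
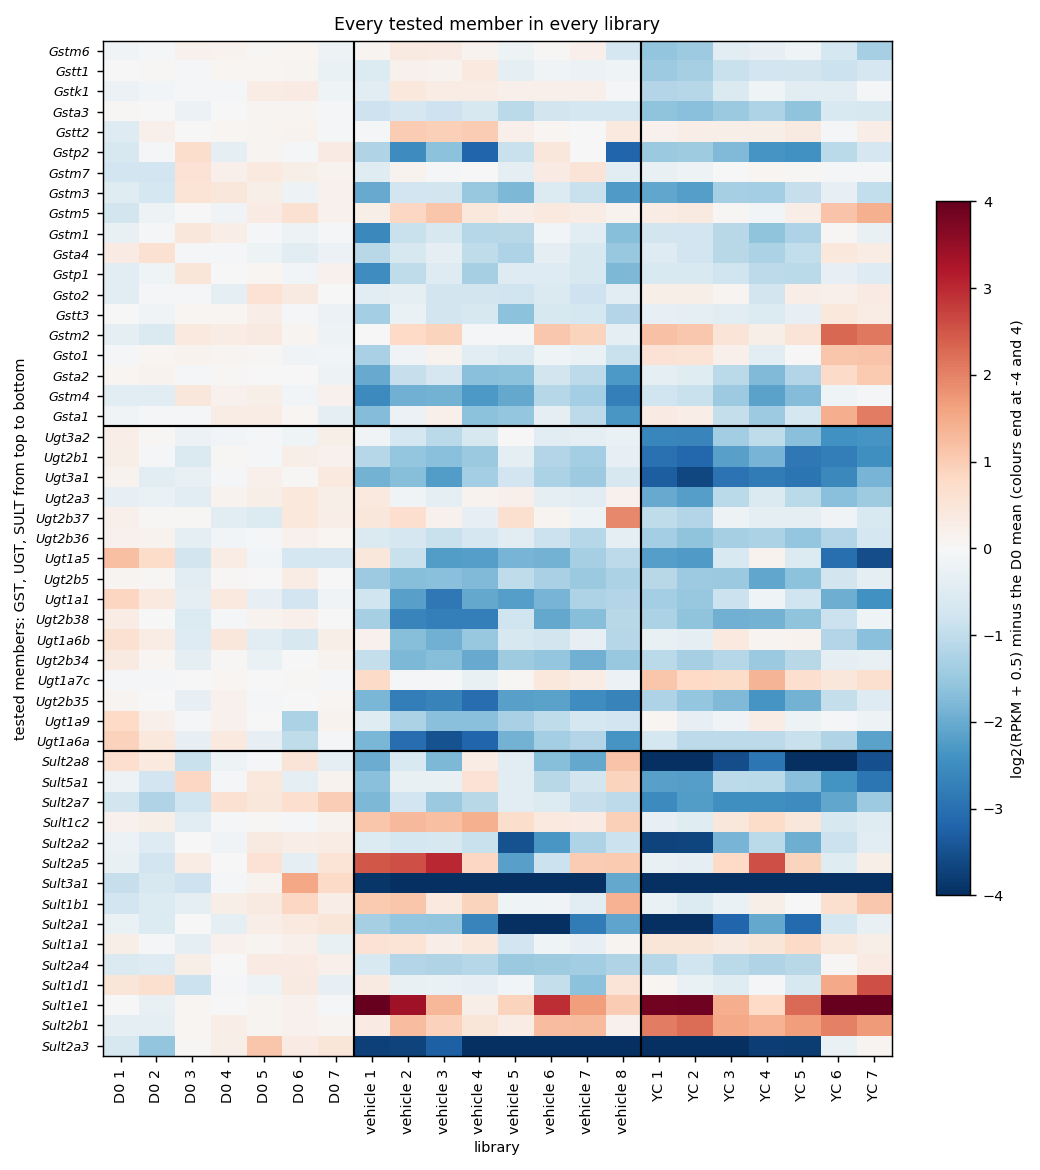
Log2(RPKM + 0.5) of each tested gene in each library minus the mean of the 7 D0 libraries, with genes in rows by class and libraries in columns; blue is below and red above the D0 mean. The Sult3a1 row is dark blue in every YC library and in 7 of 8 vehicle libraries, and YC 6 and YC 7 are redder than YC 1 to YC 5 for Gsta1, Gsta2, Gstm2 and Sult2a3.

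The 7 genes that missed the filter were Gstt4, Ugt1a2, Ugt1a10, Ugt2a1, Sult2a6, Sult3a2 and Sult4a1. Their highest values ran from 0.0352 RPKM (Ugt2a1) to 1.78 RPKM (Sult3a2), and they were not tested. Among the tested genes, Gstm5, Gstm7, Sult1b1, Sult1d1 and Sult2a5 passed no comparison. Sult1d1, which sulfates catecholamines, was at 197.2 and 413 RPKM in YC 6 and YC 7, against 44.1 to 72.1 in the other YC livers.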

How the data were processed

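The authors deposited 1 table of RPKM values with a column for each of 22 libraries of polyadenylated liver RNA. Per the submitters' processing notes, TopHat 1.4.1, Cufflinks 1.3.0 and mm10 were used. The sources used here do not give the annotation, the use of strand or the step at which each tool entered, so overlapping genes cannot be told apart. If the commonest step of low values is worth 1 read or fragment, depths were 25.2 to 41.4 times 1000000 per library, and errors are the spread between samples. Libraries were grouped by the labels as D0 (7), vehicle (8) and YC (7).

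The 12537 genes that reached 0.5 RPKM in 7 or more libraries were fitted as log2(RPKM + 0.5) with limma 3.58.1 (eBayes with trend and robust, statmod 1.5.0, R 4.3.3), all 22 libraries in 1 model, two-sided with Benjamini-Hochberg adjustment over all genes and calls under 0.05. The added 0.5 makes fold changes of genes near 0 too small. On data simulated for YC against vehicle (12549 genes) the fit recovered 91% of genes changed by 1 and 98% of those changed by 2 on the log2 scale, with 14 false calls. The simulation drew each gene independently and changed 100 genes at each size. It therefore does not give the error rate where libraries stand apart or most genes shift in 1 direction, as here.

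Full values are given, in each class, for the 6 called genes with the largest difference between YC and vehicle at a mean of at least 5 RPKM in 1 group, the 3 likewise for each comparison with D0, and the 3 most abundant; others were named after their values were seen. The members, lists and tests were chosen with earlier results of these data known. Coordinates of sequences and the sequences are RefSeq's on GRCm38.p6; shared windows are of 50 bases over GENCODE M21 transcripts. The alternatives were 2 pseudocounts, 2 filters, 2 scalings, a fit of the compared groups only, array weights, a replicate block and subsets of libraries. Python 3.11.15 was used otherwise.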

Additional observations from a re-analysis of the deposited data

Results flagged for a closer look

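In 9 of 90 tests of a group's values, over 30 genes, 1 library lay far from the rest of its group; chance alone flags about 1 in 20 such tests. D0 3 was the lowest D0 liver for Gsta3 (1624 RPKM), Ugt2b1 (148.7 RPKM), Ugt2b35 (300.1 RPKM) and Ugt2b5 (870.7 RPKM). Vehicle 5 was the lowest vehicle liver for Gsta3 (900.3 RPKM). Vehicle 1 was the highest for Sult1e1 (99.99 RPKM), and vehicle 8 for Sult3a1 (2.429 RPKM). In YC livers, YC 3 was the highest for Sult3a1 (0.139 RPKM) and YC 7 the lowest for Ugt1a6a (5.285 RPKM).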

How the results depend on the processing

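Most limits come from scaling, from YC 6 and YC 7, and from Y-linked transcripts, which all vehicle and no D0 libraries had. Low genes such as Gsto2, Sult2a4, Sult2b1, Sult2a7 and Ugt2b37 rest on few reads. Of the single-gene values, 2300 of 2389 gave the same call, 0 reversed, 59 lost and 30 gained one. For YC against vehicle, called genes fell to 3816 with a filter at a mean of 5 RPKM (fewer genes tested), where 1 SULT gene was higher and 1 lower. Members called higher were 5 after median-ratio scaling (GST 2, UGT 2, SULT 1), 9 without YC 6 and YC 7 (GST 3, SULT 1), 6 among Y-bearing libraries (GST 2, UGT 3, SULT 1) and 8 with vehicle 1 also left out (GST 2, SULT 1). Higher SULT genes were 1 after quantile normalization, 1 with only the compared groups fitted (GST 4) and 5 without vehicle 1 and YC 4. Against D0, the filter at 5 RPKM gave 4061 genes and 2 members higher for vehicle, and 3560 genes and 3 members higher for YC. For YC against D0, members higher were 3 after median-ratio scaling, 3 after quantile normalization, 2 among libraries without Y-linked transcripts (4426 genes called) and 3 with YC 4 also left out. The cause was not tested except where fewer genes or libraries entered. The pseudocounts of 0.1 and 1, no filter and array weights kept all of these counts within 1.5 times. Settings without Y-linked transcripts and among Y-bearing libraries with vehicle 1 out were chosen after seeing the data.

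Leaving out each library in turn gave 10 to 15 members higher and 14 lower with YC against vehicle: 4 to 7 GST genes higher (4 without YC 6 or YC 7) and 1 to 5 SULT genes higher. The SULT count was 5 without vehicle 1, and 1 without YC 6, YC 7, or vehicle 4, 5, 6 or 7. For YC against D0 it gave 3 to 6 members higher (3 without YC 5).

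Same-numbered libraries correlated at -0.39 to 0.23 over 21 pairs, with 5 above 0.1, so no clear pairing by number was seen. Differently numbered pairs were not set beside them, so these values cannot exclude a pairing. With the replicate number as a block, 6002 genes and 13 members higher and 14 lower were called for YC against vehicle, and the SULT genes called higher went from 2 to 1.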
